A study of Mus musculus with 6 samples.

Results

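The genes described here make, convert and inactivate prostaglandins and leukotrienes in inflamed mouse skin. The set holds 10 named genes, chosen by symbol from the deposited read count and FPKM tables: Ptgs1, Ptgs2, Ptges, Ptgds, Hpgd, Hpgds, Alox5, Alox5ap, Alox15 and Ltc4s. All 10 were found, each in 1 row, among 35275 listed genes. RNA was sequenced from the epithelial region of back skin of C57BL/6 mice in 6 libraries. Of these, 3 came from mice without interleukin-33 (IL-33 KO), an alarm cytokine that epithelial cells keep in their nuclei, and 3 from wild-type mice (WT). Every mouse, in both genotypes, had received 0.25% DNFB (dinitrofluorobenzene, a contact allergen that inflames the skin) in acetone and olive oil on the back, 3 times a week for 22 days. No untreated skin was analysed here, so the levels below are those of chronically inflamed skin. The labels state neither how Il33 was inactivated, nor the age and sex of the mice, nor whether each library came from a separate mouse, so the p-values speak for the spread among these 6 libraries, which may be technical.

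Prostaglandins are lipid messengers made from arachidonic acid of cell membranes: cyclooxygenases turn it into prostaglandin H2, separate synthases make prostaglandin E2, prostaglandin D2 and others from that, and a dehydrogenase inactivates them. Lipoxygenases open the other branch, in which leukotriene A4 is made and passed on to leukotriene B4, which attracts neutrophils, or to leukotriene C4, which constricts vessels and makes them leak. In skin, prostaglandin E2 is made largely by keratinocytes and widens vessels, whereas mast cells and other blood-derived cells are the textbook source of prostaglandin D2 and leukotriene C4.

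Total counts were 20459574 to 24359612 per library. Il33 itself, the targeted gene, was at 111 to 197 CPM (counts scaled to a common library size) in WT and at 0.532 to 0.928 CPM in IL-33 KO (adjusted p = 1.755e-04 in edgeR), in the direction the labels give. Keratinocyte markers, which define the labelled epithelial region, were abundant in every library. Markers of tissue beside it were present as well: fibroblast markers summed to 12817 to 22936 CPM in WT and 12024 to 14073 CPM in IL-33 KO, adipocyte markers to 155 to 662 and 660 to 897 CPM, and skeletal muscle markers to 8.08 to 8.69 and 11.6 to 230 CPM. Summed markers of platelets, dendritic cells, T cells, endothelium and sebaceous gland overlapped between genotypes, and 0 genes of the 16 marker lists passed the test. At an unadjusted p under 0.05 in edgeR were 13 of 13 tested hair follicle, 6 of 6 melanocyte and 4 of 4 skeletal muscle markers. In other lists it was 4 of 10 mast cell, 3 of 8 fibroblast, 0 of 9 keratinocyte and 0 of 10 macrophage markers. Over all tested genes the share was 9.02%. The library WT 1 held the highest CPM of 5 of the 10 genes and IL-33 KO 1 the lowest CPM of 4. In bulk skin, fewer cells of a type and less RNA per cell cannot be told apart.

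None of the 9 genes that could be tested passed between genotypes, and Ltc4s had too few counts. In edgeR's quasi-likelihood test with Benjamini-Hochberg adjustment over 15720 tested genes, 0 of the 9 members that had enough counts reached an adjusted p of 0.05, and 0.0191% of all tested genes did (0.0127% higher and 0.00636% lower in IL-33 KO). DESeq2, which called 1.26% of 18458 genes (1.01% higher, 0.255% lower), and limma-voom likewise called 0 members. At an unadjusted p under 0.05 edgeR gave 2 members, Hpgd, lower in IL-33 KO, and Ptgds, higher, while 9.02% of all tested genes were under that p (4.87% higher, 4.15% lower). Leaving out IL-33 KO 1, IL-33 KO 3 or WT 2 left 1 member, Hpgd, under it, beside 4.49%, 9.54% and 5.88% of all tested genes. Of the 9 tested members 8 had a negative log2 fold change of IL-33 KO over WT, with a median of -0.21, beside 52.0% negative and a median of -0.01 over all tested genes. Hpgd was the single tested member whose libraries did not overlap between the genotypes, while 13.9% of all tested genes had no overlap (7.46% higher, 6.47% lower).

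The 4 promoter sequences are shown because they belong to the genes on which the results turn: the pair of cyclooxygenases, whose spread between libraries was unequal, and Hpgd and Ptgds, with the smallest p. Each is the 250 bases before the RefSeq start on build GRCm38.p6, on the gene's own strand, with motif matches in capitals.
Ptgs2: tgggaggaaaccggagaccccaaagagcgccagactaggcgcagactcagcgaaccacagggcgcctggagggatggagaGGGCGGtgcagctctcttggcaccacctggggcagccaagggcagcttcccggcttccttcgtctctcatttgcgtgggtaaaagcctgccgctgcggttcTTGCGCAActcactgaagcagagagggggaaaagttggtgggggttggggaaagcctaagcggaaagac
Ptgs1: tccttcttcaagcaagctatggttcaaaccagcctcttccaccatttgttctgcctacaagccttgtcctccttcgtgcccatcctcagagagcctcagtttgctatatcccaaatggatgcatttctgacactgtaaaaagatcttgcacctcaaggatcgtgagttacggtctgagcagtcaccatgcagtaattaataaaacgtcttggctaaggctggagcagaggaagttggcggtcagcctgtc
Hpgd: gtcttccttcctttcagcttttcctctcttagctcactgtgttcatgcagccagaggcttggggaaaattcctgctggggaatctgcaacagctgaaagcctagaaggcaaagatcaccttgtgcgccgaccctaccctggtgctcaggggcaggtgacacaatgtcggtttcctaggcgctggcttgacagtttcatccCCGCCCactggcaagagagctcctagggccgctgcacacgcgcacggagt
Ptgds: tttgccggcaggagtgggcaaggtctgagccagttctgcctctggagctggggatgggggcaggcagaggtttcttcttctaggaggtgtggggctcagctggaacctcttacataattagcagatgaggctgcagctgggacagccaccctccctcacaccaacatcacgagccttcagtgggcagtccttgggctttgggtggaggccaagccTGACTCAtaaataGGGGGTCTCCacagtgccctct
They lie at chr1:150099781-150100030 (plus strand), chr2:36230176-36230425 (plus), chr8:56294302-56294551 (plus) and chr2:25469750-25469999 (minus). The RefSeq start of Ptgds differs from the start listed with the counts. Its window therefore lies inside the gene as listed there, at 25466709 to 25470046. The search covered 300 bases, with 50 after the start, on both strands, for the TATA box (TATAAA), the CRE half-site (TGACG), AP-1 (TGANTCA), C/EBP (TTGCGCAA), the E-box (CACGTG), Sp1 (GGGCGG) and the NF-kB consensus by its usual degenerate letters. Of 32851 RefSeq windows of that length, 13.6% held the TATA box, 20.8% the CRE half-site, 7.81% AP-1, 0.183% C/EBP, 7.15% the E-box, 35.7% Sp1 and 4.51% NF-kB. The Ptgs2 window held the C/EBP motif at bases -69 to -62, an Sp1 motif at -170 to -165, and, after the start, a CRE half-site at bases 14 to 18 that overlaps an E-box at 17 to 22. In the Ptgs1 window 0 of the 7 motifs were found, which says only that these letters are not in it. Hpgd held Sp1 and, at bases 5 to 10 after the start, the TATA box. Ptgds held AP-1 at -35 to -29 and a match to NF-kB at -22 to -13. These matches describe the sequence and are not shown to be used in skin. RefSeq windows were found for 8 of the 10 genes and not for Alox15 and Alox5ap.

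On the FPKM scale, which divides by gene length so that genes can be compared, the 10 genes fell into a group of 7 that were well expressed and a group of 3 that were barely expressed. Ptges, the inducible prostaglandin E synthase, had the highest mean level at 49.6 ± 11.1 FPKM (SD, n = 6 libraries), followed by Alox5ap at 34.5 ± 5.41, Hpgd at 21.5 ± 10.2, Ptgs1 at 20.7 ± 3.45 and Ptgs2 at 13.8 ± 9.74. The prostaglandin D synthases Hpgds and Ptgds stood at 7.31 ± 1.22 and 6.90 ± 4.30 FPKM. Alox5, Alox15 and Ltc4s were at 0.664 ± 0.140, 0.351 ± 0.327 and 0.307 ± 0.203 FPKM. Neighbours in this order overlapped in range at every step except 1: the lowest Ptgds value, 2.94, lay above the highest Alox5 value, 0.911. Ptges was above Alox5ap in 5 of 6 libraries, while Hpgd was above Ptgs1 in only 3 of 6 and Alox15 above Ltc4s in 3 of 6, so these latter pairs had no fixed order.

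**Figure D1:**
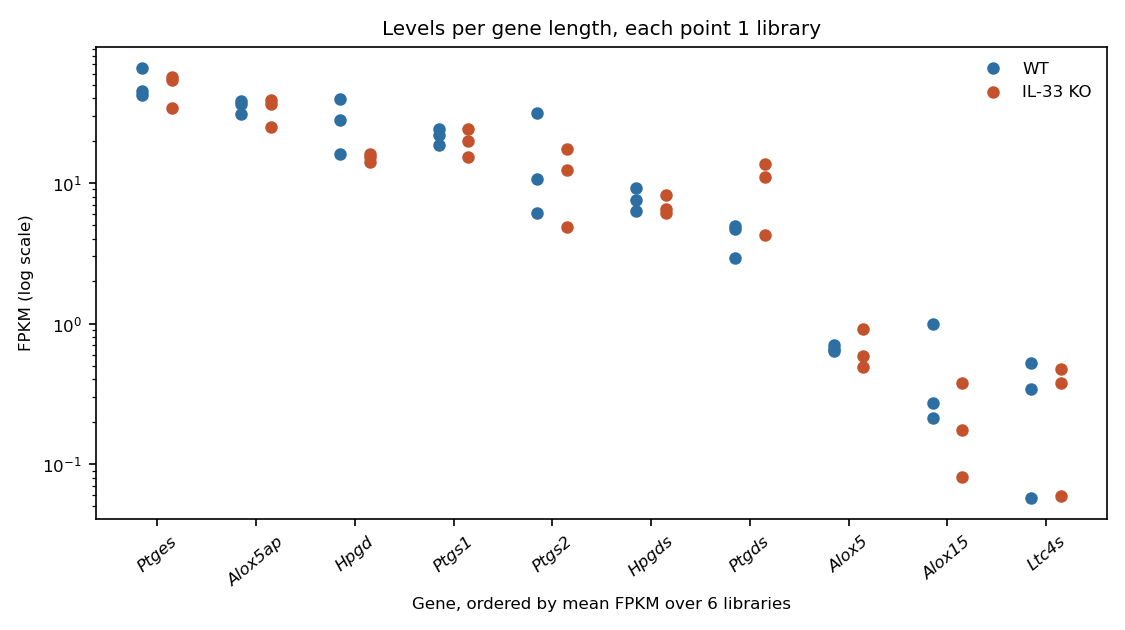
FPKM of the 10 genes on a log axis, ordered by their mean over the 6 libraries, each point 1 library (WT blue, IL-33 KO orange). A gap separates the 7 genes from Ptges at 34.1 to 65.3 FPKM down to Ptgds at 2.94 to 13.5 FPKM from Alox5, Alox15 and Ltc4s, which stay under 1 FPKM.

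The cyclooxygenases showed no difference between genotypes beyond the spread of libraries, and the inducible form varied far more than the constitutive one. Ptgs2 (chromosome 1, 150100031 to 150108227), cyclooxygenase-2, which inflammation switches on, was measured at 150.1, 28.9 and 45.2 CPM in WT libraries 1, 2 and 3, and at 20.1, 55.0 and 77.0 CPM in IL-33 KO libraries 1, 2 and 3. WT 1 stood far above the other libraries, IL-33 KO 1 was the lowest, and the groups overlapped. The log2 fold change was -0.56 ± 0.65 (SE; 95% interval -2.05 to 0.94; adjusted p = 0.797 in edgeR), and without WT 1 it turned to 0.46 (adjusted p = 0.847). The sum of wound keratinocyte markers was also highest in WT 1 and lowest in IL-33 KO 1, although Sprr1b, Sprr2d and S100a8 were lowest in WT 3. Of these markers 8 of 8 were lower in IL-33 KO on average (0 passing). They summed to 17229 to 29400 CPM in IL-33 KO and 21184 to 51684 CPM in WT. In this sum WT 2, at 38220 CPM, stood above every IL-33 KO library, but for Ptgs2 it lay below IL-33 KO 2 and 3. Neutrophil markers, of which 5 of 8 were lower and 0 passed, summed to 58.2 to 95.6 CPM in IL-33 KO and 55.0 to 148 CPM in WT, again with WT 1 highest. None of these markers was at 0 in all libraries, and their part in the Ptgs2 values was not tested.

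Ptgs1 (chromosome 2, 36230426 to 36252272), cyclooxygenase-1, which supplies prostaglandins in unstimulated tissue, was at 67.1, 74.0 and 50.9 CPM in WT libraries 1, 2 and 3, and at 40.9, 68.9 and 56.8 CPM in IL-33 KO libraries 1, 2 and 3. The values interleaved, again with IL-33 KO 1 lowest, and the log2 fold change was -0.21 ± 0.21 (SE; 95% interval -0.70 to 0.29; adjusted p = 0.773 in edgeR). The highest WT library exceeded the lowest by 5.19 times for Ptgs2 and by 1.45 times for Ptgs1, beside a median of 1.37 times over all tested genes. In IL-33 KO the same ratios were 3.83 and 1.69, beside a median of 1.29. Per gene length, Ptgs1 was above Ptgs2 in 5 of 6 libraries, and the ratio of Ptgs2 to Ptgs1 in FPKM ran from 0.252 in WT 2 to 1.44 in WT 1, with 0.568 ± 0.282 in IL-33 KO against 0.754 ± 0.615 in WT (mean ± SD of 3 libraries each).

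**Figure D2:**
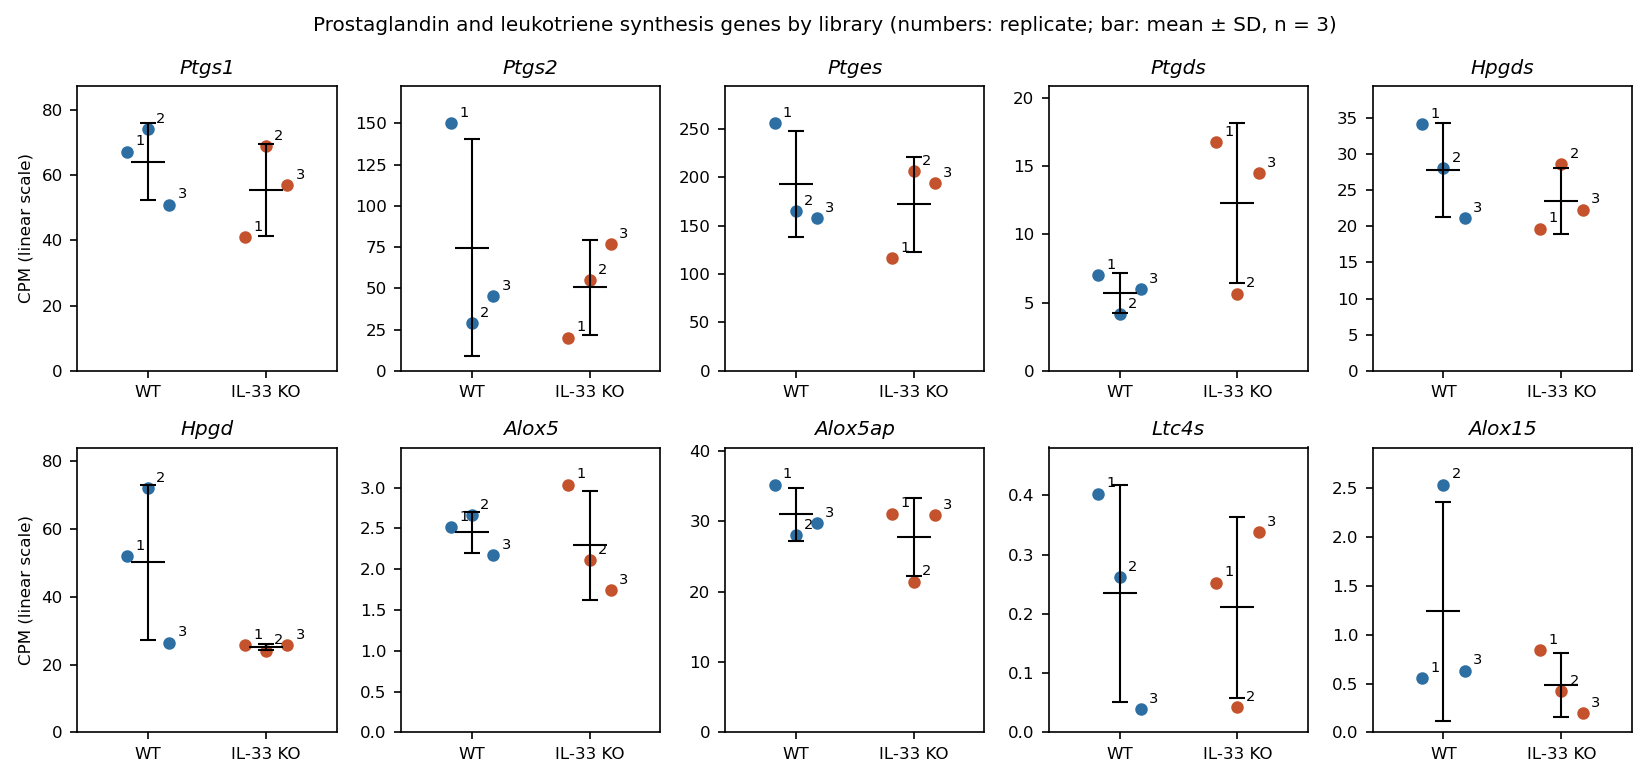
CPM of each of the 10 genes on a linear axis from 0, each point 1 library with its replicate number, and the mean ± SD (n = 3) of each genotype. WT 1 stands out for Ptgs2 at 150.1 CPM, the 3 IL-33 KO libraries lie together for Hpgd at 24.2 to 25.9 CPM, and for Ptgds IL-33 KO 1 and 3 lie above the rest.

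Of the synthases that work on prostaglandin H2, Ptges and Hpgds overlapped between genotypes, and Ptgds was higher on average in IL-33 KO through 2 of the 3 libraries. Ptges (chromosome 2, 30889471 to 30929863), which makes prostaglandin E2 downstream of cyclooxygenase-2, was at 256, 165 and 157 CPM in WT libraries 1, 2 and 3, and at 116, 206 and 194 CPM in IL-33 KO libraries 1, 2 and 3. Its extremes were the same libraries as for Ptgs2, WT 1 high and IL-33 KO 1 low. The log2 fold change was -0.16 ± 0.26 (SE; 95% interval -0.77 to 0.45; adjusted p = 0.862 in edgeR), and it turned to 0.055 without IL-33 KO 1 and to 0.097 without WT 1. The pseudogene Gm13400, with 2 counts in all, overlaps Ptges.

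Ptgds (chromosome 2, 25466709 to 25470046) encodes the lipocalin-type prostaglandin D synthase, a secreted protein unrelated in structure to Hpgds that catalyses the same step. It was at 7.0, 4.15 and 5.99 CPM in WT libraries 1, 2 and 3, and at 16.7, 5.65 and 14.5 CPM in IL-33 KO libraries 1, 2 and 3. IL-33 KO 1 and 3 were above every WT library, but IL-33 KO 2 lay inside the WT range. The mean was 12.3 ± 5.86 CPM in IL-33 KO against 5.72 ± 1.45 CPM in WT (mean ± SD of 3 libraries each), a fitted ratio of 2.15. This is a log2 fold change of 1.10 ± 0.39 (SE; 95% interval 0.20 to 2.01; adjusted p = 0.504 in edgeR). Over the alternative settings the adjusted p ran from 0.175 to 0.958. Melanocyte markers were likewise highest in IL-33 KO 1 and 3 and lowest in WT 2. All 6 were higher on average in IL-33 KO with 0 passing, none was at 0 in all libraries, and their sum was 105, 71.4 and 138 CPM in WT libraries 1, 2 and 3, and 275, 128 and 227 CPM in IL-33 KO libraries 1, 2 and 3. Skeletal muscle markers summed to 109, 11.6 and 230 CPM in IL-33 KO libraries 1, 2 and 3, and 8.08 to 8.69 CPM in WT. All 4 tested were higher on average (0 passing). Hair follicle markers were higher on average in 13 of 13 (0 passing, none at 0 in all libraries). Their sums were 20791, 10346 and 9927 CPM in IL-33 KO libraries 1, 2 and 3, and 2606 to 5491 CPM in WT. Unlike Ptgds, this sum was no lower in IL-33 KO 2 than in IL-33 KO 3. All 13 hair follicle, all 6 melanocyte and all 4 tested skeletal muscle markers had an unadjusted p under 0.05 in edgeR, beside 9.02% of all tested genes. The part of these cell types in the Ptgds values was not tested.

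Hpgds (chromosome 6, 65117293 to 65144908), the prostaglandin D synthase of mast cells and other blood-derived cells, was at 34.1, 28.0 and 21.1 CPM in WT libraries 1, 2 and 3, and at 19.6, 28.6 and 22.3 CPM in IL-33 KO libraries 1, 2 and 3. The groups overlapped, with a log2 fold change of -0.24 ± 0.21 (SE; 95% interval -0.72 to 0.24; adjusted p = 0.736 in edgeR). Mast cell markers summed to 308 to 348 CPM in IL-33 KO and 396 to 468 CPM in WT, with 9 of 10 lower on average, 0 passing and none at 0 in all libraries, while 5 of the 10 overlapped singly. Cpa3, Cma1, Tpsb2, Tpsab1 and Mrgprb2 did not overlap in CPM, each lower in IL-33 KO, as were 6.47% of all tested genes. On the FPKM scale only Tpsab1 among them did not overlap. Hdc, at 163 CPM in WT 1, was among the markers that overlapped. Without Hdc the sums overlapped, at 247 to 318 CPM in IL-33 KO and 305 to 387 CPM in WT. That alternative was chosen after seeing the data. The part of mast cells in the Hpgds values was not tested. The pseudogene Gm17147, with 21 counts in all beside 3458 for Hpgds, overlaps it on the opposite strand. Per gene length, Ptgds exceeded Hpgds in IL-33 KO 1 and 3, by 2.23 and 1.70 times in FPKM. In the other 4 libraries Hpgds was the higher of the pair, with a ratio of Ptgds to Hpgds of 0.518 in IL-33 KO 2 and of 0.538, 0.388 and 0.743 in WT 1, 2 and 3.

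All 3 IL-33 KO libraries had less Hpgd than the lowest WT library, WT 3, which lay close to them. Hpgd (chromosome 8, 56294552 to 56321046) encodes the dehydrogenase that oxidises prostaglandin E2 and related prostaglandins to inactive products. It was at 52.1, 72.1 and 26.5 CPM in WT libraries 1, 2 and 3, and at 25.7, 24.2 and 25.9 CPM in IL-33 KO libraries 1, 2 and 3. The IL-33 KO libraries agreed within 1.07 times, the WT libraries within 2.72 times, and WT 1 and 2 stood well above the rest. The means were 25.2 ± 0.935 CPM and 50.2 ± 22.9 CPM (SD, n = 3), a log2 fold change of -0.99 ± 0.31 (SE; 95% interval -1.71 to -0.27) with an adjusted p of 0.465 in edgeR. Without WT 3 it was -1.30 and passed, with an adjusted p of 0.0451 in edgeR, whereas without WT 2 it was -0.64 (adjusted p = 0.846). In DESeq2 the adjusted p was 0.0951, and over the alternative settings it ran from 0.0451 to 0.958. The sum of keratinocyte markers was highest in WT 2 and WT 1 too. Not every single marker shared this order, and Trp63 was lowest in WT 2, at 264 CPM. Of the 9 markers all were lower on average in IL-33 KO, 0 passed and none was at 0 in all libraries. Their sum was 67677, 73152 and 43434 CPM in WT libraries 1, 2 and 3. In IL-33 KO libraries 1, 2 and 3 it was 31622, 52304 and 52315 CPM. The part of keratinocytes in the Hpgd values was not tested. Set against its synthase, Ptges was above Hpgd in FPKM in all 6 libraries, with a ratio of 3.23 ± 0.984 in IL-33 KO against 2.06 ± 0.888 in WT (mean ± SD of 3 libraries each) and overlapping libraries.

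Of the 3 members in the leukotriene branch, Alox5ap was well expressed, Alox5 low and Ltc4s barely detected, and the libraries of both genotypes overlapped for each. Alox5ap (chromosome 5, 149265058 to 149288045), the membrane protein that presents arachidonic acid to the enzyme Alox5, was at 35.2, 28.0 and 29.8 CPM in WT libraries 1, 2 and 3, and at 31.1, 21.4 and 30.9 CPM in IL-33 KO libraries 1, 2 and 3. Its log2 fold change was -0.16 ± 0.17 (SE; 95% interval -0.56 to 0.24; adjusted p = 0.786 in edgeR), the smallest standard error of the set. Alox5 (chromosome 6, 116410077 to 116461178), the lipoxygenase that makes leukotriene A4, was at 2.52, 2.66 and 2.17 CPM in WT libraries 1, 2 and 3, and at 3.04, 2.11 and 1.74 CPM in IL-33 KO libraries 1, 2 and 3. The WT libraries lay inside the IL-33 KO range, and the log2 fold change was -0.09 ± 0.28 (SE; 95% interval -0.74 to 0.56; adjusted p = 0.932 in edgeR), turning to 0.0035 with total counts as the scaling and to 0.068 without IL-33 KO 3. Per gene length Alox5ap exceeded Alox5 by 42.6 to 74.4 times. Macrophage markers, of which 7 of 10 were lower on average with 0 passing, summed to 400 to 557 CPM in IL-33 KO and 449 to 570 CPM in WT, and their part in the values of Alox5ap and Alox5 was not tested.

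Ltc4s (chromosome 11, 50236469 to 50238616), which joins leukotriene A4 to glutathione to give leukotriene C4, had 8, 6 and 1 counts in WT libraries 1, 2 and 3, and 6, 1 and 7 in IL-33 KO libraries 1, 2 and 3. That was too few for the test. Summed over libraries WT had 15 counts and IL-33 KO 14, a ratio per total count of 0.985, whose exact binomial 95% interval ran from 0.441 to 2.19 and covers counting error only. Fold differences inside that interval were not detectable at this depth. The non-coding gene Gm26542, with 17 counts in all, overlaps Ltc4s on the opposite strand, and the sources used here do not say whether counting used strand, so the Ltc4s values are uncertain.

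Alox15 (chromosome 11, 70344152 to 70352031), a lipoxygenase of macrophages and eosinophils that makes hydroxylated fatty acids and precursors of lipoxins, had 11, 58 and 16 counts in WT libraries 1, 2 and 3, and 20, 10 and 4 in IL-33 KO libraries 1, 2 and 3. WT 2 alone stood out, at 2.53 CPM beside 0.193 to 0.843 CPM in the other 5 libraries. The log2 fold change of -1.33 ± 0.73 (SE; 95% interval -3.01 to 0.35; adjusted p = 0.612 in edgeR) was the most negative of the set, and without WT 2 it shrank to -0.27 (adjusted p = 0.963). Eosinophil markers were nearly absent: only 1 of 6, Ccr3, had enough counts to be tested, and Epx, the eosinophil peroxidase, was at 0 in all libraries. Their sum was 1.01 to 1.89 CPM in IL-33 KO and 1.14 to 3.12 CPM in WT. Siglecf, Prg2 and Ear6 had their most counts in WT 2, at 22, 8 and 7. Ccr3 had its most in WT 1, at 48, and Il5ra in IL-33 KO 1, at 4. The part of eosinophils in the Alox15 values was not tested.

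**Figure D3:**
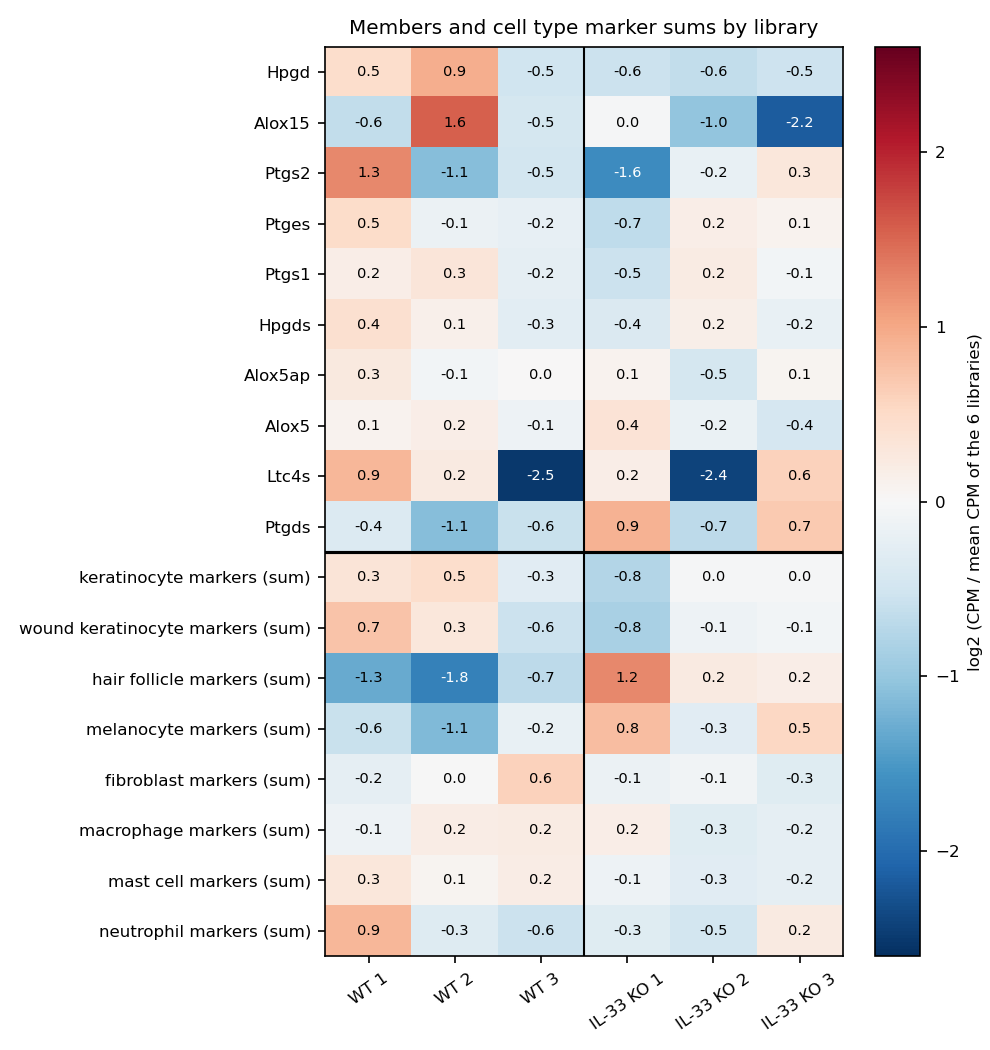
Rows are the 10 genes and the summed CPM of 8 marker lists, columns the 6 libraries, and each cell gives log2 of the CPM over the mean CPM of the 6 libraries, also as colour. Ptgs2 reaches 1.3 in WT 1 and -1.6 in IL-33 KO 1, Hpgd is positive in WT 1 and WT 2 alone, and Ptgds and the melanocyte markers are positive in IL-33 KO 1 and IL-33 KO 3 alone.

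The rest of the pathway was read from a list of 62 further genes, of which 55 had enough counts. In edgeR 0 of 55 passed over all genes, and 0 passed in limma-voom. At an unadjusted p under 0.05 there were 14, or 25.5%, with 8 higher and 6 lower in IL-33 KO, beside the 9.02% over all tested genes. This count moved with single libraries: leaving out IL-33 KO 1, 2 or 3 gave 2, 10 and 9 genes, and leaving out WT 1, 2 or 3 gave 8, 3 and 21. The share of all tested genes was 4.49%, 6.96% and 9.54% when IL-33 KO 1, 2 or 3 was left out. Without WT 1, 2 or 3 it was 7%, 5.88% and 17.2%. The libraries did not overlap in 12, or 21.8%, beside 13.9%. As the list was chosen with earlier results of these data known, neither share is an independent comparison with all tested genes. Of the 55 genes 30 had negative fold changes, with a median log2 fold change of -0.06. DESeq2 called 2 genes of the list, Ggt1 and Alox8, both higher in IL-33 KO, beside 1.26% of all genes it tested.

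Among lipoxygenases and enzymes that process leukotrienes, the largest fold changes of the whole list stood beside some in the other direction. Ggt1, gamma-glutamyl transferase, which trims leukotriene C4 to leukotriene D4, was at 13.1 ± 5.29 CPM in IL-33 KO against 4.18 ± 1.82 CPM in WT (mean ± SD of 3 libraries each), with an adjusted p of 0.365 in edgeR and 0.00381 in DESeq2. Alox8, an arachidonate lipoxygenase of mouse skin, was at 22.6 ± 9.15 and 7.42 ± 3.75 CPM (adjusted p = 0.389 in edgeR and 0.00560 in DESeq2). Both had IL-33 KO 1 highest, at 19.1 and 33.1 CPM, and no overlap between genotypes. The hair follicle sum given above has the same highest library and also no overlap, and its part in these 2 genes was not tested. Alox12b, a lipoxygenase that the skin barrier needs and the most abundant per length of the 5 other lipoxygenases, was at 41.6 ± 15.5 CPM in IL-33 KO against 85.4 ± 37.4 CPM in WT, with overlap and an adjusted p of 0.527 in edgeR. The keratinocyte sum given above was also lower on average in IL-33 KO, and its part in Alox12b was not tested. Mgst2, a glutathione transferase able to make leukotriene C4, was at 14.6 ± 3.02 and 22.1 ± 6.36 CPM (adjusted p = 0.531 in edgeR), with every IL-33 KO library below every WT library. Mgst3, a relative of Mgst2, had the highest FPKM among leukotriene genes of this list at 45.1 and a log2 fold change of 0.24 ± 0.15 (SE).

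Of the phospholipase A2 genes, a family that includes the enzymes releasing arachidonic acid, 10 of 16 tested had negative fold changes and 0 passed. Pla2g2f, the secreted phospholipase of the upper epidermis, was the most abundant at 254 FPKM, and its CPM of 586 ± 143 in IL-33 KO against 676 ± 156 in WT (mean ± SD of 3 libraries each; adjusted p = 0.792 in edgeR) overlapped. Pla2g2e, a secreted form, was at 13.7 ± 4.73 and 6.59 ± 3.38 CPM (adjusted p = 0.510 in edgeR), and Pla2g4c, a cytosolic form, at 1.24 ± 0.355 and 0.484 ± 0.203 CPM (adjusted p = 0.473 in edgeR). Pla2g4c was higher in every IL-33 KO library than in any WT library. For Pla2g2e the lowest IL-33 KO and highest WT libraries were level, at 10.4 and 10.3 CPM, and on the FPKM scale the groups overlapped.

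Other prostanoid synthases were lower on average in 5 of 7 tested genes, and transport and breakdown genes in 4 of 5, with 0 passing in either group. Fam213b, a prostaglandin F synthase, was at 38.5 ± 9.01 CPM in IL-33 KO against 65.1 ± 22.3 CPM in WT (adjusted p = 0.513 in edgeR), and the carbonyl reductase gene Cbr1 at 25.0 ± 0.268 and 32.0 ± 5.87 CPM (adjusted p = 0.547 in edgeR). The related reductase gene Cbr3 was at 44.7 ± 6.63 and 66.7 ± 13.8 CPM (adjusted p = 0.472 in edgeR), without overlap. Cbr1 did not overlap in CPM either, but on the FPKM scale it did. Ptgr1, prostaglandin reductase 1, was at 111 ± 20.2 and 157 ± 44.6 CPM (adjusted p = 0.564 in edgeR), and Ptges3, a cytosolic prostaglandin E synthase that is also a chaperone partner, at 192 ± 30.7 and 174 ± 3.98 CPM (adjusted p = 0.756 in edgeR).

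Of the receptors, 6 of 8 tested prostanoid receptors and 4 of 6 leukotriene and lipoxin receptors had positive fold changes, beside 48.0% of all tested genes, and 0 passed. Their median log2 fold changes were small, at 0.10 and 0.15. The prostaglandin E2 receptor genes Ptger4 and Ptger1 had 15.9 ± 2.85 and 14.5 ± 0.562 CPM in IL-33 KO against 10.4 ± 3.21 and 10.6 ± 2.05 CPM in WT (mean ± SD of 3 libraries each; adjusted p = 0.531 and 0.527 in edgeR). Ptger1 was higher in every IL-33 KO library than in any WT library, whereas Ptger4 overlapped. The chemerin receptor gene Cmklr1 was at 17.5 ± 2.78 and 12.8 ± 2.59 CPM (adjusted p = 0.548 in edgeR). The leukotriene B4 receptor genes Ltb4r1 and Ltb4r2 had log2 fold changes of 0.23 ± 0.21 and 0.32 ± 0.18 (SE). Ptgdr2, the prostaglandin D2 receptor of type 2 lymphocytes and eosinophils, had 0 to 7 counts per library and was not tested.

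**Figure D4:**
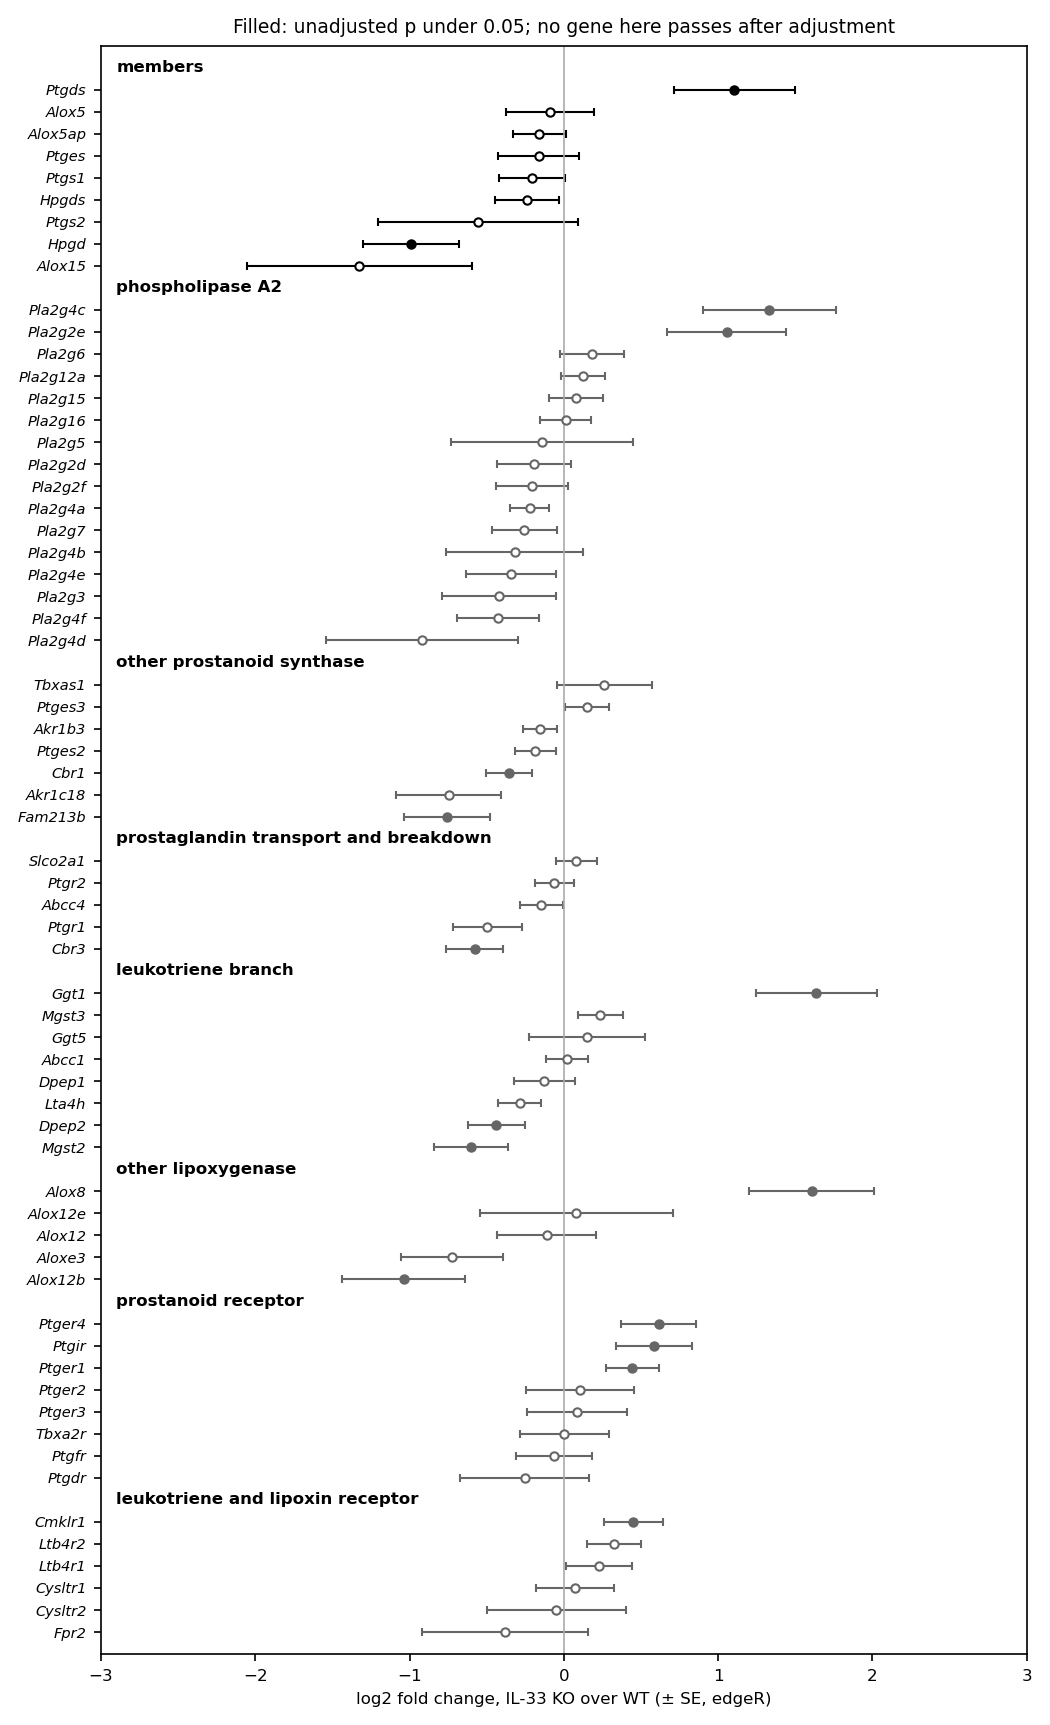
The log2 fold change of IL-33 KO over WT with its SE in edgeR for the 9 tested members and 55 tested genes of the wider list, grouped by role. Filled points have an unadjusted p under 0.05, and Ggt1 (1.64 ± 0.39) and Alox8 (1.61 ± 0.40) lie farthest to the right, Alox15 (-1.33 ± 0.73) farthest to the left.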

How the data were processed

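The deposited tables hold, for 35275 genes in 6 libraries, raw counts as the authors made them and, in a second table, FPKM, with symbols and coordinates per the file headers. STAR, RSEM and build mm10 are named, without versions, in the submitters' processing notes. The deposited FPKM values equal count over listed length and column total within a relative difference of 2.782e-07, so they carry no separate information. The test on counts used edgeR 4.0.16 under R 4.3.3: filterByExpr by genotype, TMM scaling (factors 0.932 to 1.07), glmQLFit and glmQLFTest, two-sided, Benjamini-Hochberg over 15720 genes, threshold 0.05. The biological coefficient of variation was 21.3%. SE and 95% intervals were derived from the F statistic, and CPM uses TMM-scaled library sizes. The test was also run on simulated counts, drawn independently for each gene and so without shifts that genes share within a library. Its outcome is not given here. Alternatives were other size factors, other filters, DESeq2 1.42.0, limma 3.58.1 (voom, and trend on log2(FPKM + 1) and log2(FPKM + 0.1)), a replicate block and leaving out each library. No 2 libraries agreed within sampling noise (chi-square per degree of freedom at least 34.2). The 10 members, the wider list of 62 genes and the 16 marker lists were chosen with earlier results of these data known. Named in the wider list were, in each role, any gene that passed, the 2 with the smallest p and the gene with the highest mean FPKM. Of 124 marker symbols 123 were matched, 2 of them by Ensembl identifier. Promoters come from RefSeq, build GRCm38.p6, and were matched by symbol.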

Additional observations from a re-analysis of the deposited data

How the results depend on the processing

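Of 478 recomputed fold changes of the 27 named genes, 470 kept their direction and their side of the threshold. Direction turned for Ptgs2 when WT 1 was left out (-0.99 to 0.46 over single libraries left out), for Ptges when IL-33 KO 1 (0.05) or WT 1 was (-0.32 to 0.10), for Alox5 when IL-33 KO 3 was (-0.35 to 0.068), and for Alox5 with total counts (0.0035), and none of these passed. Those that came to pass were Hpgd without WT 3, and Ggt1 (1.65) and Alox8 (1.61) in DESeq2, which raised the count of the wider list from 0 to 2. The count of members past the threshold was 0 in every setting except without WT 3, where it was 1, so leaving out single libraries gave 0 to 1. Over all genes 3 passed, and 2 to 24 with single libraries left out: leaving out IL-33 KO 2 gave 10, IL-33 KO 3 gave 5 and WT 3 gave 24. The count was 5 with upper quartile factors, 5 with total counts, 33 without a filter, 5 with a CPM of at least 1 in 3 libraries, 233 in DESeq2, 11 in limma-voom, 15 with log2(FPKM + 1), 11 with log2(FPKM + 0.1) and 6 with log2(FPKM + 1) unfiltered; the cause was not tested. At an unadjusted p under 0.05 the split of higher against lower genes was 765 to 653, and 906 to 334 with total counts. Same-numbered libraries did not deviate together (correlations of -0.264, -0.117 and -0.378), while those of differently numbered libraries ran from -0.0367 to 0.275. Deviations were taken within each group of 3 libraries and so constrain one another. These values therefore cannot show whether the libraries were paired. With the replicate number as a block 2 genes passed, 0 of them members (Hpgd -0.88, adjusted p = 0.893 in edgeR, and Ptgds 1.00, adjusted p = 0.676). Depth limits Ltc4s, which had 29 counts in all and no fit.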

Other observations

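Hdc, which encodes the histamine-forming enzyme histidine decarboxylase and stands in the mast cell marker list, followed Ptgs2 from library to library. It was noticed after its values were seen. Hdc was at 163, 31.4 and 43.2 CPM in WT libraries 1, 2 and 3, and at 29.5, 57.6 and 76.8 CPM in IL-33 KO libraries 1, 2 and 3, beside 150.1, 28.9 and 45.2 CPM in WT and 20.1, 55.0 and 77.0 CPM in IL-33 KO for Ptgs2. The order of the 6 libraries was the same for both genes, and the ratio of Hdc to Ptgs2 stayed between 0.956 and 1.47 while Ptgs2 itself ranged over 7.46 times. Of the other tested genes 45, or 0.286%, had this same order. The mast cell protease genes did not share it. Cpa3 was at 54.3, 69.0 and 84.1 CPM in WT libraries 1, 2 and 3, and at 54.1, 52.8 and 37.1 CPM in IL-33 KO libraries 1, 2 and 3. WT 3 was highest for Cpa3, Mcpt4 and Cma1, and WT 2 for Tpsb2. For Tpsab1 WT 1 was highest, as for Hdc, but every WT library lay above every IL-33 KO library. In CPM that separation also held, narrowly, for Cpa3, Cma1 and Tpsb2, which overlapped on the FPKM scale.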
